A study of Homo sapiens with 12 samples.

Results

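The 47 genes described here are interferon-stimulated genes, that is, genes whose transcription is raised in most cell types by type I interferon. They were chosen by symbol as known members of this class, with no threshold on the measured values but with earlier results of these data known, and all 47 were found among the 61487 gene identifiers of the count table. After the filter on low counts 46 of them were tested with 16104 genes in all. The exception was ZBP1, a sensor of left-handed nucleic acids, which had 1 count in the 12 libraries together, in a library given both agents. The cells were MOLM14, an established human acute myeloid leukemia line, and all of them, controls included, carried an inducible shRNA against RIP140. RIP140 is a coregulator of nuclear receptors encoded by NRIP1. There were 4 groups of 3 biological replicates. The ATRA group received all-trans retinoic acid, a ligand of the retinoic acid receptors, at 1 µM for 48 h with the shRNA off. The ATRA+DOX group, called the combined group from here on, received the same dose of ATRA with doxycycline at 50 ng/mL, which switches the shRNA on. The DOX group received doxycycline at 50 ng/mL and no ATRA, and the untreated group received neither. The series' title names the question of whether RIP140 restrains the response to ATRA. The labels give 1 shRNA and no group with a control shRNA, so that an effect of doxycycline itself cannot be told apart from one of RIP140 loss.

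Gene counts, in units of 1e6, summed to between 9.45 and 19.36 per library in 11 libraries and to 2.69 in DOX replicate 3. NRIP1, the gene the shRNA targets, had 38.5, 41.1 and 51.9 CPM in ATRA, 15.9, 20.9 and 19.95 CPM in combined, 19.2, 14.99 and 15.7 CPM in DOX and 59.7, 58.9 and 53.3 CPM in untreated libraries. It was thus lower in each library with doxycycline than in each library without it. CPM are counts per 1e6 counts after TMM scaling of the libraries. Errors of CPM are SD with n = 3 per group throughout, and errors of log2 changes are standard errors. A gene is said to have risen or fallen where edgeR's quasi-likelihood test gave a Benjamini-Hochberg adjusted p under 0.05 over all 16104 genes. Among markers of other cells, the 5 T cell genes held 9 counts in the 12 libraries together, the 3 erythroid genes 2, the 3 fibroblast genes 41 and the 3 B cell genes 353. Of the 6 genes listed for plasmacytoid dendritic cells, the classical interferon producers, the defining CLEC4C and LILRA4 held 12 and 34 counts, but the list summed to 38.85 to 47.49 CPM in ATRA, 36.97 to 46.9 CPM in combined, 46.96 to 56.6 CPM in DOX and 43.19 to 48.62 CPM in untreated libraries, mostly from IL3RA, which myeloid leukemia cells also express. The 3 NK cell genes summed to 12.3 to 17.4 CPM in ATRA, 10.2 to 15.75 CPM in combined, 17.7 to 24.2 CPM in DOX and 18.0 to 20.8 CPM in untreated libraries, nearly all of it NKG7, while KLRD1 had 1 count. The 3 epithelial genes summed to 32.3 to 37.8 CPM in ATRA, 39.7 to 54.8 CPM in combined, 59.6 to 71.8 CPM in DOX and 43.87 to 53.05 CPM in untreated libraries, all from the keratins KRT8 and KRT18, since EPCAM had no count. These 3 lists thus moved with the groups in part, and their part in the results was not tested. A list of 13 monocytic leukemia genes summed to 985 to 1058 CPM in ATRA and 953 to 1161 CPM in combined libraries. It summed to 1106 to 1181 CPM in DOX and 979 to 1032 CPM in untreated libraries. Levels within the list differed widely. SPI1, FLT3 and MPO had 249, 252 and 196 CPM in combined libraries, while CD14 averaged at most 0.219 CPM in any group. The other genes of the list are not given singly here. Of the 13 genes 11 were tested. Of the 11, 5 rose and 3 fell in ATRA against untreated (15.7% and 13.2% of all genes). In combined against DOX 4 rose and 3 fell (10.7% and 8.21%). In DOX against untreated 3 rose and 1 fell (8.14% and 6.92%), and in combined against ATRA 1 rose and 3 fell (1.89% and 2.56%).

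Interferons alpha and beta bind the receptor chains IFNAR1 and IFNAR2, which carry the Janus kinases TYK2 and JAK1. These kinases activate the factor ISGF3, of which STAT2 and IRF9 are parts, and ISGF3 binds a sequence called the interferon-stimulated response element (ISRE) in the promoters of its target genes. Another element, the GAS, serves mainly the response to interferon gamma. IRF1 can bind ISRE-like sites without ISGF3. In acute promyelocytic leukemia cells ATRA is known to raise IRF1.

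The promoters of 7 members are printed here, chosen because they hold ISRE-like matches. They come from members that answered ATRA strongly (IFI6, IFIT1, OAS3, EPSTI1), highly expressed members (BST2, ISG15) and a member that was not raised (HERC5). Each run holds the 250 bases before the RefSeq transcription start, 5′ to 3′ on the strand of the gene, in build GRCh38.p14. Capitals mark ISRE-like matches on either strand, that is, GAAA, any 2 bases, and GAAA again, with overlapping matches joined. The regions were chr1:1013247-1013496 on the plus strand for ISG15, chr1:27672193-27672442 on the minus strand for IFI6 and chr10:89392373-89392622 on the plus strand for IFIT1. They were chr12:112938224-112938473 on the plus strand for OAS3, chr13:42992242-42992491 on the minus strand for EPSTI1, chr19:17405631-17405880 on the minus strand for BST2 and chr4:88456869-88457118 on the plus strand for HERC5.
IFI6: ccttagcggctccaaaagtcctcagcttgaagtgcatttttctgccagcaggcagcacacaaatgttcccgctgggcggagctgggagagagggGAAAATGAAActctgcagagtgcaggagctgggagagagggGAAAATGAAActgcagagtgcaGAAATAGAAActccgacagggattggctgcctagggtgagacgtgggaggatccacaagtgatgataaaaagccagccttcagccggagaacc
IFIT1: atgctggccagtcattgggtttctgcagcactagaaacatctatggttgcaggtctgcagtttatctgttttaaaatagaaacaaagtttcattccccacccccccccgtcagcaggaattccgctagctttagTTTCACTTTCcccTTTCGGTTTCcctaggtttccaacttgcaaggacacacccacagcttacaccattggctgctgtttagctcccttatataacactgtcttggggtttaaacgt
OAS3: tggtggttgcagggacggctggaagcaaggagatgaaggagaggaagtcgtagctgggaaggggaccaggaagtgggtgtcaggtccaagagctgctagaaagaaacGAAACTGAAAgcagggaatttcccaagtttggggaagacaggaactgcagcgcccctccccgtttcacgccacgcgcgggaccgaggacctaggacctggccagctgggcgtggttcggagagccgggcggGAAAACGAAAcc
EPSTI1: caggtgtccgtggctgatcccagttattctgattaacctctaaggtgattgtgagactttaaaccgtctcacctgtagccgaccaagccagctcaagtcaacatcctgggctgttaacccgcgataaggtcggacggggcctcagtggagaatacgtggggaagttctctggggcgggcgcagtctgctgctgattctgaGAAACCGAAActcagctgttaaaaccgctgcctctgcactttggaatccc
BST2: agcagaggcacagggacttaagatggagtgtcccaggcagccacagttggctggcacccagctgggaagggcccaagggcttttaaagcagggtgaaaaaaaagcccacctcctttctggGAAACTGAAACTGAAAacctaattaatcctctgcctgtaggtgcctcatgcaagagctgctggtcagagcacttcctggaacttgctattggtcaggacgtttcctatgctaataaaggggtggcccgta
ISG15: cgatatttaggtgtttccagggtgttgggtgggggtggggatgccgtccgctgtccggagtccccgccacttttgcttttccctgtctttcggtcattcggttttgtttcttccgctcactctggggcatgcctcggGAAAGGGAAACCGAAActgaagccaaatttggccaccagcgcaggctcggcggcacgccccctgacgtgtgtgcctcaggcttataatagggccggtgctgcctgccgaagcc
HERC5: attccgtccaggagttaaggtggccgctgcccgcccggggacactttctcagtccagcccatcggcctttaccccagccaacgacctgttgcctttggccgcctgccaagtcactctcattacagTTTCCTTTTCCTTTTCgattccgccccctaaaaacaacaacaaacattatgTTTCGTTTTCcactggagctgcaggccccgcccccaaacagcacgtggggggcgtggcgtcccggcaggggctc

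IFI6 and HERC5 each held 3 matches in these bases, ISG15, IFIT1, OAS3 and BST2 held 2 and EPSTI1 held 1. In ISG15, BST2 and HERC5 a pair of matches overlapped. Over the whole RefSeq window of 300 bases, which adds the 50 bases after the start, 54 promoters were found for 38 members. The ISRE-like pattern was present, on either strand, in 28 of these 38 members (73.7%), against 445 of 10648 tested genes with a promoter entry (4.18%) and 3.57% of all 35116 promoters. The GAS letters TTCNNNGAA were present in 10 of the 38 members (26.3%), against 8.53% of tested genes and 7.66% of all promoters. The letters GGTCA repeated after any 5 bases were in none of the 38 and in 30 of all promoters (0.09%). This spacing is shorter than that of the DR5 element bound by retinoic acid receptors. The search therefore cannot tell whether the members hold that element. IFIT2, OAS2, OASL, MX2, IFITM2, USP18, DHX58, ZBP1 and TRIM22 had no entry in the promoter table. A match describes letters in a window and does not show binding.

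**Figure D1:**
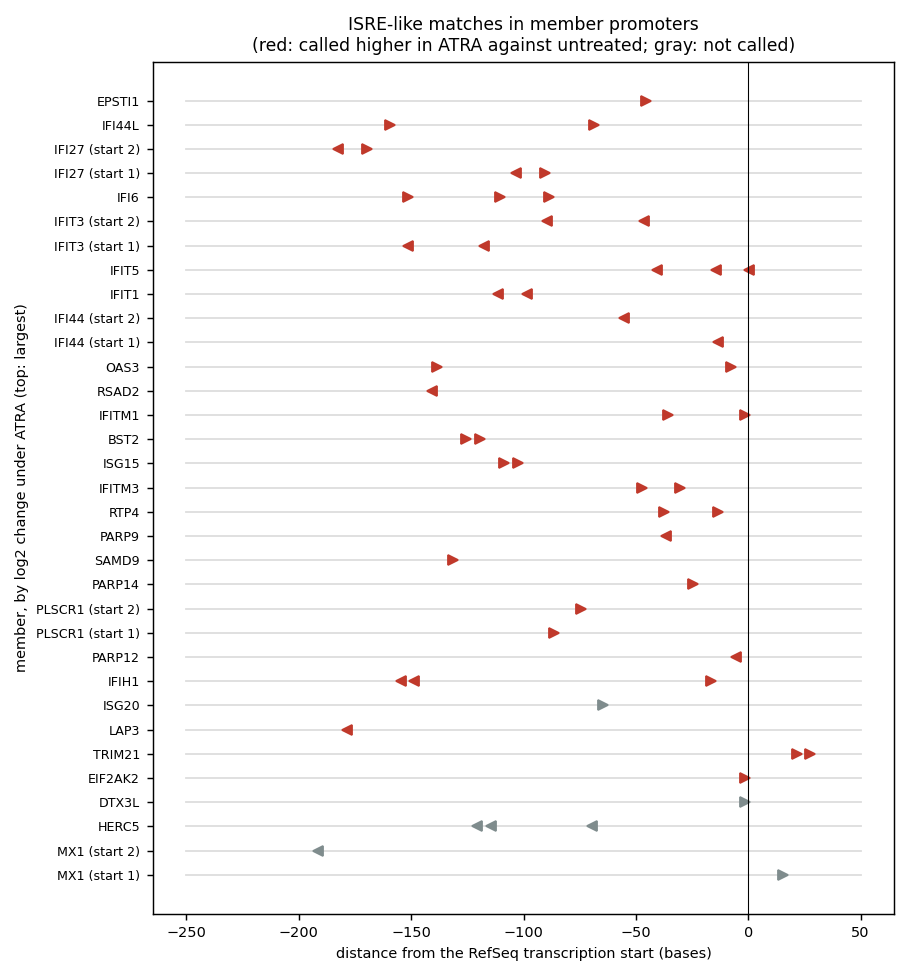
ISRE-like matches (GAAA, any 2 bases, GAAA) in the RefSeq promoters of 28 members, with the distance from the transcription start in bases on the horizontal axis and 1 row per promoter, ordered by the log2 change in ATRA against untreated. Arrowheads give the strand, red members rose with ATRA and gray ones did not pass the test; most matches lay within the 200 bases before the start, and the gray members ISG20, DTX3L, HERC5 and MX1 held matches too.

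Levels differed widely among the members. Genes can be compared roughly per kilobase of exon. The length joins all annotated exons of a gene, 10240 bases for IFI44L and 8616 for MX1. A gene whose mRNA is shorter than this length comes out too low. On this scale BST2 was highest in ATRA libraries with 124.5 CPM per kb (41.8 in untreated). ADAR followed with 41.6 (32.6 in untreated) and LAP3 with 33.9 (22.9 in untreated). BST2 (tetherin) holds budding virions on the cell surface, ADAR edits adenosine to inosine in double-stranded RNA, and LAP3 is a leucine aminopeptidase. At the other end IFI44L had 0.270 CPM per kb in ATRA and 0.00459 in untreated libraries, and MX1 0.138 and 0.219. The same-scale values of IFI6 were 20.2 in ATRA and 1.10 in untreated libraries, and those of ISG15 were 20.6 in ATRA and 8.59 in untreated libraries. Summed over the 47 members, the level was 1686, 1541 and 1736 CPM in ATRA libraries, 1770, 1645 and 1804 CPM in combined, 1112, 1040 and 1055 CPM in DOX and 1057, 1030 and 996 CPM in untreated libraries. All 6 libraries with ATRA lay above all 6 without it. These are bulk libraries, in which fewer cells that express a gene and less RNA per cell cannot be told apart.

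ATRA with the shRNA off raised most of the set. Of the 46 members tested 39 rose and none fell, against 15.7% of all genes called higher and 13.2% called lower. By the unadjusted p, 40 members were under 0.05, and DESeq2 also called 39 higher and none lower. The share of all genes under that unadjusted p was not counted, here or in the other comparisons. The libraries of the 2 groups did not overlap in 42 members, with ATRA higher in 41 and lower in 1 (22.8% and 22.5% of all genes). The median log2 change of the members was 0.95, against −0.01 over all genes. A log2 change of at least 1 was reached by 23 of the risen members and at least 2 by 14. The shares of all genes that reached these sizes were not counted.

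**Figure D2:**
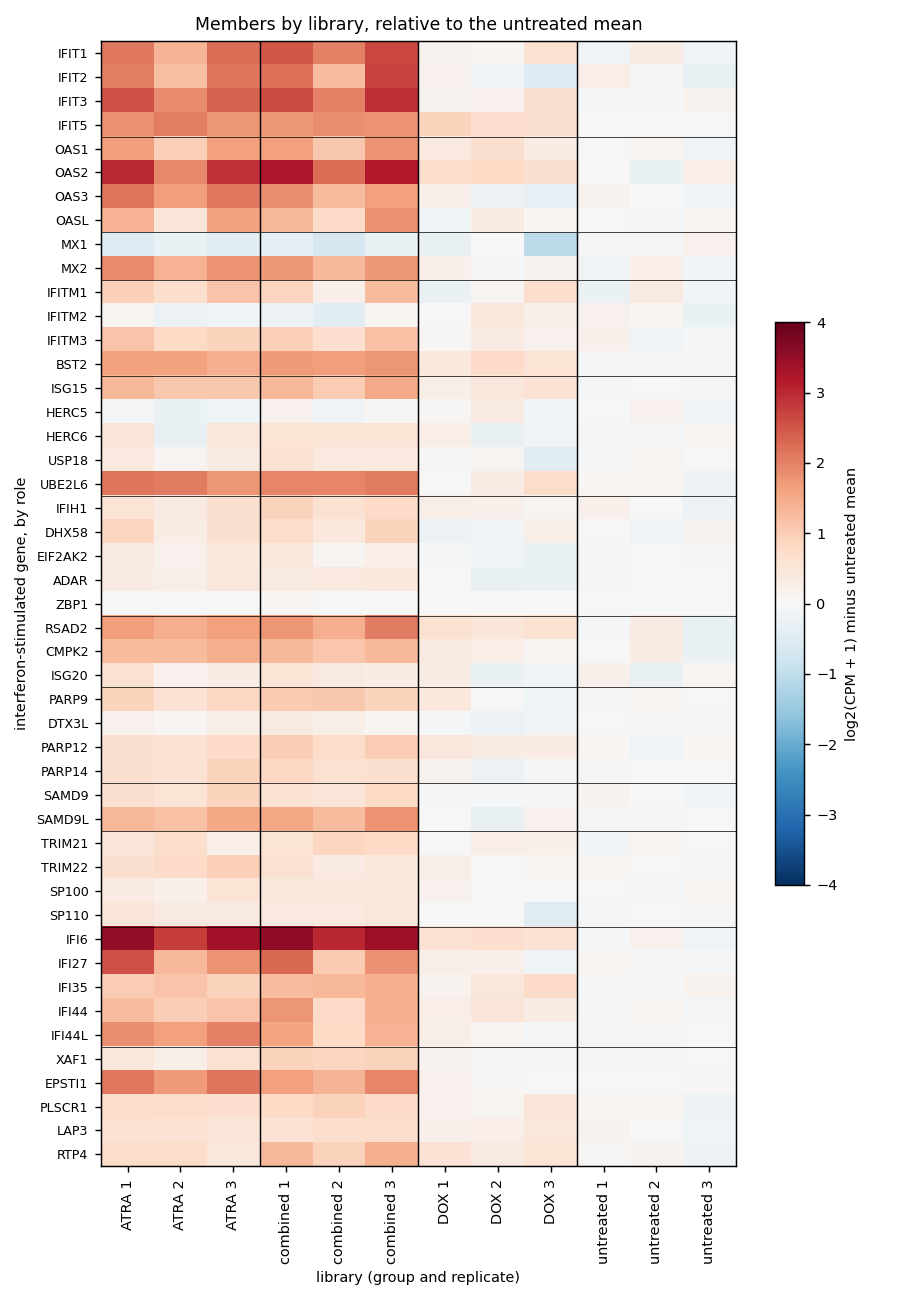
All 47 members by library, as log2(CPM + 1) minus the mean of the untreated libraries, with libraries in columns by group and replicate and members in rows by role. Red is higher and blue lower than untreated; the ATRA and combined columns were red for most rows, IFI6 most of all, and the columns of replicate 2 were paler in both of these groups.

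The IFIT proteins, which bind foreign RNA at its 5′ end and hold back its translation, moved as a family. IFIT1, IFIT2, IFIT3 and IFIT5 lie in a cluster on chromosome 10 (89283694 to 89421001, GRCh38), and all 4 rose with log2 changes between 2.45 and 2.85. IFIT1 had 9.53, 5.21 and 10.3 CPM in ATRA libraries and 1.16, 1.97 and 1.22 CPM in untreated libraries. Every ATRA library was above every untreated one, with ATRA replicate 2 the lowest of its group (log2 change 2.55 ± 0.29, edgeR quasi-likelihood, Benjamini-Hochberg adjusted p = 3e-07). IFIT2 had 9.41, 4.78 and 10.2 CPM in ATRA and 2.03, 1.63 and 1.05 CPM in untreated libraries, again without overlap and again with ATRA replicate 2 at the lower end (2.45 ± 0.43). IFIT3 had 14.3, 8.82 and 12.4 CPM in ATRA and 1.55, 1.46 and 1.88 CPM in untreated libraries (2.85 ± 0.26). IFIT5 had 5.66, 6.69 and 5.30 CPM in ATRA and 0.870, 0.857 and 0.884 CPM in untreated libraries (2.74 ± 0.25). IFIT5 was the family's exception in that ATRA replicate 2 was its highest ATRA library. IFIT2 shares 356 exon bases on the same strand with another annotated gene, so its counts are less certain.

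The OAS enzymes make 2′-5′ oligoadenylates when they meet double-stranded RNA, which activates the nuclease RNase L, and OASL is a relative without that activity. All 4 rose. OAS1, OAS3 and OAS2 are neighbours on chromosome 12 (112906777 to 113011723). OAS2 had 21.5, 9.88 and 20.5 CPM in ATRA and 1.93, 1.37 and 2.43 CPM in untreated libraries, a log2 change of 3.15 ± 0.38 (adjusted p = 3.22e-05, edgeR quasi-likelihood, Benjamini-Hochberg). OAS3 had 32.3, 23.4 and 31.8 CPM in ATRA and 7.34, 6.43 and 6.02 CPM in untreated libraries (2.16 ± 0.17). In both genes ATRA replicate 2 was the lowest of the treated libraries and still above every untreated one. OAS1 rose by 1.65 ± 0.22 and OASL by 2.69 ± 0.55. OASL stayed low, with 2.08 ± 1.11 CPM in ATRA and 0.311 ± 0.067 CPM in untreated libraries.

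The dynamin-like GTPases MX1 and MX2, neighbours on chromosome 21 that block incoming viral nucleocapsids, went apart. MX2 had 11.3, 7.86 and 10.6 CPM in ATRA and 2.03, 3.00 and 2.10 CPM in untreated libraries and rose by 2.08 ± 0.22 (adjusted p = 8.33e-08, edgeR quasi-likelihood, Benjamini-Hochberg). MX1, which in many cells is among the most sensitive reporters of interferon, had 1.02, 1.38 and 1.16 CPM in ATRA and 1.74, 1.71 and 2.21 CPM in untreated libraries. It was the only member whose ATRA libraries all lay below its untreated libraries, but the change of −0.71 ± 0.36 did not pass the test (adjusted p = 0.145). MX1 held 215 counts in the 12 libraries, and 236 of its exon bases lie opposite an antisense gene.

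Among the membrane proteins that restrict viruses, BST2 and IFITM3 rose and IFITM2 did not. BST2 had 145, 143 and 130 CPM in ATRA and 44.4, 47.9 and 47.9 CPM in untreated libraries, a change of 1.58 ± 0.09 with the smallest adjusted p of the set (2.51e-12, edgeR quasi-likelihood, Benjamini-Hochberg). Its groups were far apart and close within themselves. IFITM3, which blocks fusion of viruses with endosomal membranes, had 12.1, 9.46 and 10.1 CPM in ATRA and 5.99, 4.46 and 4.70 CPM in untreated libraries (1.09 ± 0.18). IFITM2 had 32.7, 25.4 and 27.8 CPM in ATRA and 34.1, 32.1 and 25.3 CPM in untreated libraries, which overlapped, with a change of −0.08 ± 0.14 (adjusted p = 0.738). IFITM1 rose by 1.59 ± 0.44 at a low level (2.43 ± 0.49 CPM in ATRA, 0.811 ± 0.421 CPM in untreated libraries). IFITM1 and IFITM2 share 351 exon bases on the same strand and the IFITM genes are near-identical relatives, so reads may have been split or lost among them.

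In the ISG15 system 2 of 5 members rose, the modifier and its conjugating enzyme. ISG15, a ubiquitin-like modifier, had 21.9, 18.3 and 18.0 CPM in ATRA and 7.73, 8.23 and 8.29 CPM in untreated libraries and rose by 1.27 ± 0.15 (adjusted p = 4.2e-07, edgeR quasi-likelihood, Benjamini-Hochberg). UBE2L6, the conjugating enzyme that passes ISG15 on, had 24.3, 23.4 and 18.6 CPM in ATRA and 5.02, 5.23 and 4.03 CPM in untreated libraries (2.24 ± 0.16). Neither gene's groups overlapped. HERC5, the main ligase for ISG15, averaged 14.3 ± 1.1 CPM in ATRA and 16.3 ± 2.0 CPM in untreated libraries (−0.17 ± 0.14, adjusted p = 0.379). Its relative HERC6 changed by 0.34 ± 0.24 and USP18, which removes ISG15 and dampens the receptor, by 0.34 ± 0.16, and neither passed the test (adjusted p = 0.297 and 0.119). The HERC5 promoter printed above holds 3 ISRE-like matches, as many as that of IFI6.

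The largest change among members with a mean of at least 2 CPM belonged to IFI6, a mitochondrial and endoplasmic reticulum protein that restrains cell death and flavivirus replication. IFI6 had 21.4, 12.3 and 18.7 CPM in ATRA and 0.870, 1.20 and 0.773 CPM in untreated libraries, a log2 change of 4.24 ± 0.25 (adjusted p = 6.17e-12, edgeR quasi-likelihood, Benjamini-Hochberg). All 5 members named IFI rose, IFI35 by 1.06 ± 0.13, IFI44 by 2.29 ± 0.43 and IFI27 by 5.01 ± 0.67. IFI44L and EPSTI1 were almost silent without ATRA. IFI44L had 99 counts over the 3 ATRA libraries and 2 over the untreated ones, a depth-scaled ratio of 55.9 with an exact 95% counting interval of 15.1 to 468. EPSTI1, named for epithelial-stromal interaction, had 111 counts over the ATRA libraries and 1 over the untreated ones, a ratio of 125 with an interval of 22.0 to 5000. These intervals cover counting error only.

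All the remaining tested members except ISG20 and DTX3L rose. RSAD2 (viperin), which makes a chain-terminating nucleotide, and its neighbour CMPK2, a nucleotide kinase, rose by 1.91 ± 0.22 and 1.41 ± 0.14. ISG20, an exonuclease, did not pass the test (0.58 ± 0.34, adjusted p = 0.212, edgeR quasi-likelihood). The RNA sensors IFIH1 (MDA5) and DHX58 (LGP2), the kinase EIF2AK2 (PKR) and ADAR all rose, by 0.60 ± 0.16, 0.85 ± 0.27, 0.34 ± 0.10 and 0.35 ± 0.09. PARP9, PARP12 and PARP14, ADP-ribosyltransferase family members, rose by 0.69 to 0.83, while DTX3L, the ubiquitin ligase partner of PARP9 which overlaps it by 217 exon bases on the opposite strand, changed by 0.17 ± 0.09 (adjusted p = 0.154). The neighbours SAMD9L and SAMD9, antiviral factors and myeloid tumor suppressors, rose by 1.45 ± 0.15 and 0.72 ± 0.11. TRIM21, TRIM22, SP100 and SP110 rose by 0.37 to 0.80. PLSCR1, LAP3, RTP4 and XAF1 rose by 0.71, 0.57, 0.84 and 0.46.

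Members with and without an ISRE-like match in the promoter both held risen genes. Of the 28 members with a match 24 rose, with a median log2 change of 0.96 over the 28. Of the 10 members with a promoter entry and no match 9 rose, with a median of 0.76. HERC6 was the member of these 10 that did not pass. These medians describe small groups and the difference between them was not tested.

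**Figure D3:**
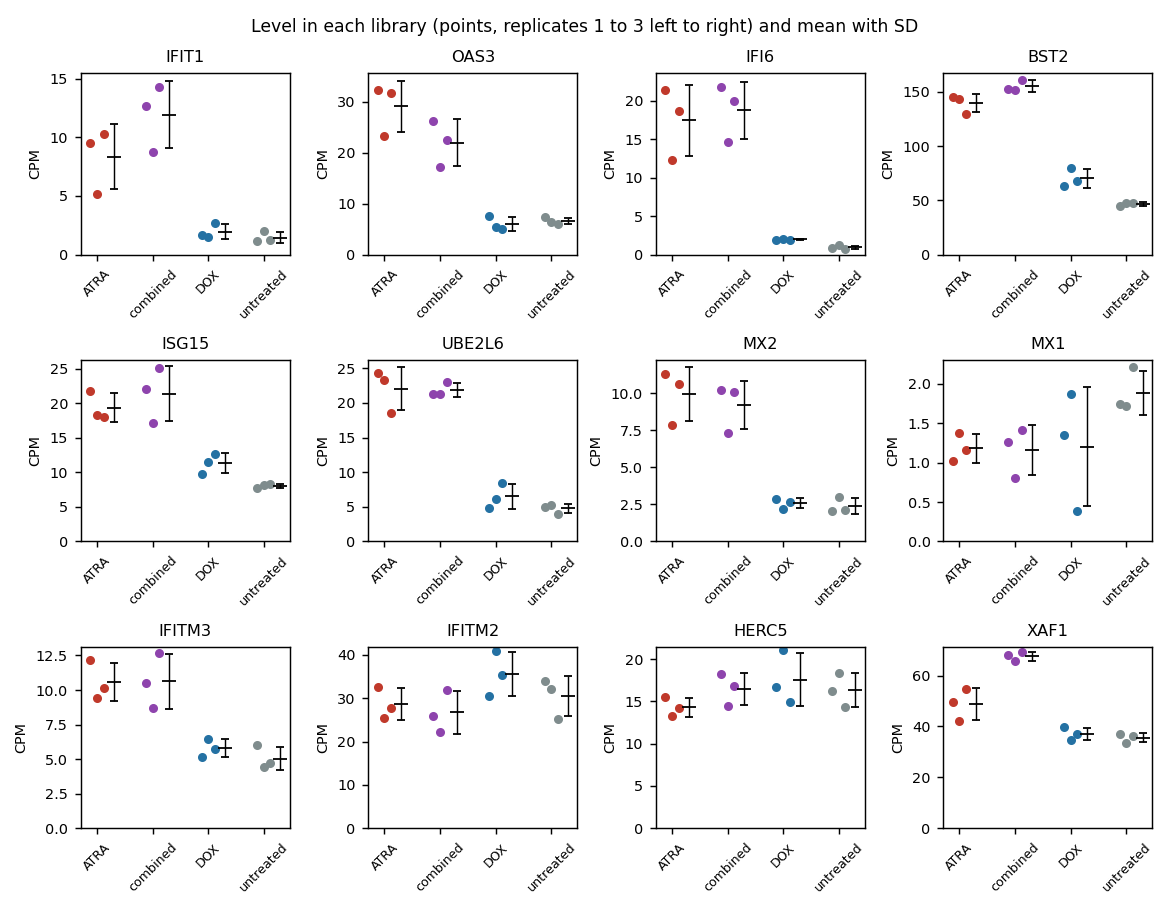
CPM of 12 members in each library, with groups on the horizontal axis (ATRA, combined, DOX, untreated), a point per library with replicates 1 to 3 left to right, and the mean with SD beside them; every vertical axis starts at 0. IFIT1, OAS3, IFI6, BST2, ISG15, UBE2L6, MX2 and IFITM3 were higher in all libraries with ATRA than in all without, while MX1, IFITM2 and HERC5 were not, and XAF1 was highest in combined libraries.

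In both ATRA-treated groups replicate 2 was low across the set. Replicate 2 was the lowest of its group in 34 of 46 members in ATRA (73.9%) and in 35 of 46 in combined (76.1%), against 33.7% and 29.2% of all genes tested. In the DOX group the lowest library was replicate 1 in 15 members, replicate 2 in 15 and replicate 3 in 16, and in the untreated group these numbers were 13, 14 and 18, leaving out EPSTI1 for a tie at 0. The sum of the 8 IFIT and OAS members was 113.9, 70.55 and 112.0 CPM in ATRA, 116.2, 72.25 and 126.6 CPM in combined, 26.4, 25.4 and 23.8 CPM in DOX and 20.5, 19.6 and 18.5 CPM in untreated libraries. Replicate 2 of both ATRA-treated groups thus held less of these mRNAs than its partners and still more than any library without ATRA. In the sum over all 47 members, given above, replicate 2 was also the lowest of both groups but by a smaller share, and IFIT5 was highest in replicate 2 in both. The same 2 libraries had 9.51 and 12.7 in units of 1e6 counts and 2.75% and 2.02% of counts on mitochondrial ribosomal RNA, within the range of the other libraries. The part of a shared day or batch was not tested, since the labels name none. Without these 2 libraries 39 members still rose with ATRA, and 40 rose in combined against DOX.

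ATRA also raised most of the set with the shRNA on. In combined against DOX, which shares no library with ATRA against untreated, 41 members rose and 1 fell, against 10.7% and 8.21% of all genes. The groups did not overlap in 42 members, all higher in combined (16.7% of all genes). The median log2 change was 0.93 (−0.01 over all genes), 20 risen members changed by at least 1 and 9 by at least 2. In total 38 members rose with ATRA in both settings and 4 rose in neither (HERC5, IFITM2, ISG20 and MX1). The shares of all genes that reached these sizes, or that rose in both settings, were not counted. IFITM1 passed only without doxycycline, and DTX3L, HERC6 and USP18 only with it, but the difference between the settings did not pass for any of these 4 (adjusted p = 0.91, 0.594, 0.743 and 0.835, edgeR quasi-likelihood, Benjamini-Hochberg).

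IFI6 had 21.8, 14.6 and 19.95 CPM in combined libraries and 1.91, 2.09 and 1.92 CPM in DOX libraries, a log2 change of 3.23 ± 0.24 (adjusted p = 4.9e-10, edgeR quasi-likelihood, Benjamini-Hochberg). IFIT1 had 12.7, 8.75 and 14.3 CPM in combined and 1.67, 1.54 and 2.69 CPM in DOX libraries (2.79 ± 0.29). Neither gene's groups overlapped, and replicate 2 was again the lowest of the combined libraries. IFIT2 had 10.6, 4.98 and 15.4 CPM in combined and 1.83, 1.26 and 0.768 CPM in DOX libraries (2.82 ± 0.45). IFIT3 had 14.97, 9.63 and 19.1 CPM in combined and 1.91, 1.92 and 3.07 CPM in DOX libraries (2.82 ± 0.27). In both, combined replicate 2 was the lowest of its group and still above all DOX libraries.

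OAS2 had 25.8, 12.7 and 25.6 CPM in combined and 3.66, 3.95 and 3.46 CPM in DOX libraries (2.49 ± 0.36), and OAS3 had 26.3, 17.3 and 22.6 CPM in combined and 7.64, 5.38 and 4.99 CPM in DOX libraries (1.83 ± 0.19). MX2 had 10.2, 7.31 and 10.1 CPM in combined and 2.87, 2.20 and 2.69 CPM in DOX libraries (1.87 ± 0.23). UBE2L6 had 21.3, 21.3 and 23.1 CPM in combined and 4.86, 6.204 and 8.45 CPM in DOX libraries (1.87 ± 0.17). In all 4 genes the combined libraries lay above the DOX libraries. EPSTI1 had 83 counts over the combined libraries and 3 over the DOX libraries, a ratio of 24.1 with an exact 95% counting interval of 7.97 to 119.

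IFITM2 was the member that fell. It had 25.9, 22.3 and 32.0 CPM in combined and 30.6, 40.9 and 35.3 CPM in DOX libraries, which overlapped, and changed by −0.43 ± 0.15 (adjusted p = 0.0437, edgeR quasi-likelihood, Benjamini-Hochberg). This call was lost in 12 of 25 alternative settings, without DOX replicate 2 among them (−0.27), and the shared exon bases with IFITM1 apply here too. MX1 had 1.26, 0.803 and 1.41 CPM in combined and 1.35, 1.87 and 0.384 CPM in DOX libraries, the last of these from DOX replicate 3, the shallowest library. HERC5 had 18.2, 14.5 and 16.8 CPM in combined and 16.6, 21.0 and 14.97 CPM in DOX libraries, and neither gene passed the test.

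**Figure D4:**
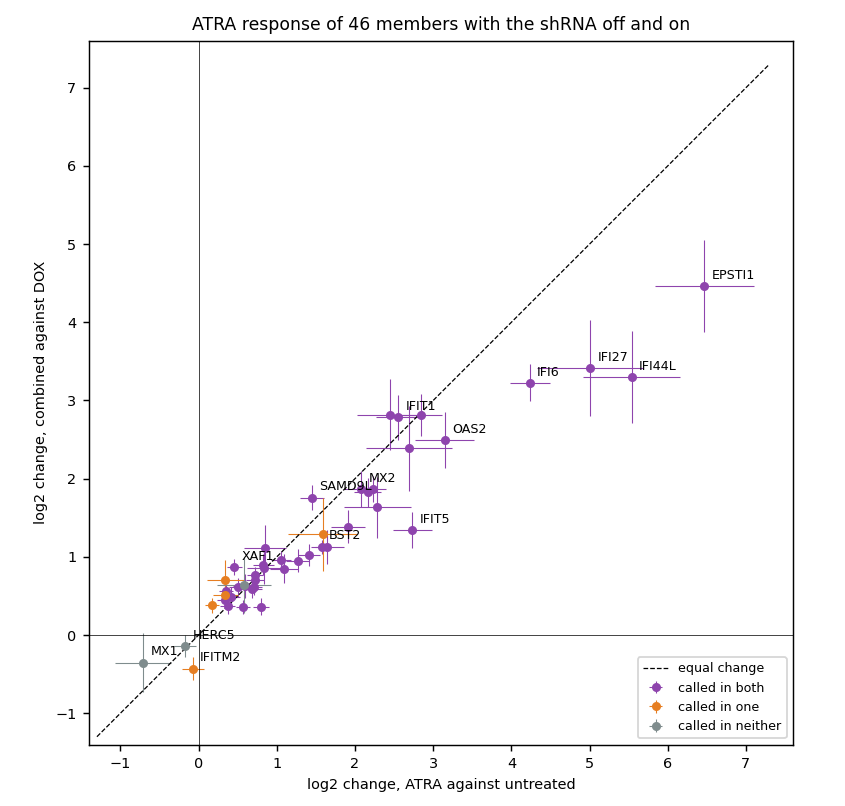
Log2 change of 46 members in ATRA against untreated (horizontal axis) and in combined against DOX (vertical axis), with standard errors as bars and the dashed line marking equal change. Most members lay near the line; EPSTI1, IFI44L, IFI27, IFI6 and IFIT5 lay below it, and MX1, HERC5 and IFITM2 near or below 0 on both axes.

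The difference of the ATRA change between the settings was tested as an interaction, the change with doxycycline minus that without. None of the members passed it in either direction, against 0.0559% of all genes called higher and 0.255% called lower. An unadjusted p under 0.05 was reached by 5 members, with no share of all genes counted beside it. DESeq2 called none either. The estimate was smaller with doxycycline in 27 members and larger in 19, with a median difference of −0.10, against −0.01 over all genes. The same split over all genes was not counted. IFIT5 came closest, with a difference of −1.39 and a 95% interval of −2.06 to −0.72 (adjusted p = 0.0816, edgeR quasi-likelihood, Benjamini-Hochberg). IFI6 differed by −1.01 (−1.77 to −0.25, adjusted p = 0.351) and BST2 by −0.44 (−0.69 to −0.20, adjusted p = 0.160). For IFIT1 the interval was −0.62 to 1.08 and for OAS2 −1.71 to 0.40, so that sizable differences in either direction were within the error for them. For EIF2AK2 it was −0.16 to 0.39 and for SP100 −0.27 to 0.27. Across the 46 members the changes in both settings had a Pearson r of 0.952, a description over genes, which are not independent replicates, from comparisons that share no library. The largest changes in it, of EPSTI1, IFI44L and IFI27, rest on 1, 2 and 4 counts over the untreated libraries. The r without these genes and the r over all genes were not computed.

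Without ATRA, a small number of members were higher with doxycycline, which switches the shRNA on. In DOX against untreated 7 members rose (15.2%) and none fell, against 8.14% and 6.92% of all genes, and 12 members had an unadjusted p under 0.05. The groups did not overlap in 14 members, with DOX higher in 13 (28.3%, against 17% of all genes) and lower in DTX3L (13.9% of all genes). The median log2 change was 0.23, against 0.01 over all genes. The risen members were IFIT5, IFI6, RSAD2, BST2, IFI35, PARP12 and LAP3.

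IFIT5 had 2.47, 1.98 and 1.92 CPM in DOX and 0.870, 0.857 and 0.884 CPM in untreated libraries, a log2 change of 1.30 ± 0.28 (adjusted p = 0.00518, edgeR quasi-likelihood, Benjamini-Hochberg). BST2 had 63.2, 79.9 and 68.0 CPM in DOX and 44.4, 47.9 and 47.9 CPM in untreated libraries (0.60 ± 0.09, adjusted p = 0.000489). Every DOX library was above every untreated library in both genes. IFI6 had 1.91, 2.09 and 1.92 CPM in DOX and 0.870, 1.20 and 0.773 CPM in untreated libraries (1.10 ± 0.35), also without overlap. RSAD2 had 4.70, 4.23 and 4.61 CPM in DOX and 2.61, 3.69 and 1.99 CPM in untreated libraries (0.73 ± 0.25). LAP3 had 100.2, 104.6 and 117.5 CPM in DOX and 95.9, 87.9 and 76.0 CPM in untreated libraries (0.30 ± 0.09). PARP12 had 17.9, 16.0 and 16.1 CPM in DOX and 13.7, 11.3 and 13.7 CPM in untreated libraries (0.38 ± 0.13), so RSAD2, LAP3 and PARP12 were separated by narrow gaps. IFI35, a partner of NMI in innate signalling, had 18.6, 23.0 and 29.2 CPM in DOX and 15.9, 15.6 and 18.7 CPM in untreated libraries (0.41 ± 0.13), where DOX replicate 1 fell within the untreated range.

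These 7 calls sat close to the threshold for the most part, and none of the 7 held under every alternative. The share of counts on mitochondrial ribosomal RNA also separated the groups, with 2.18%, 1.02% and 1.30% in DOX and 2.54%, 2.85% and 4.60% in untreated libraries. With that share as a term of the model 0 of 7 passed, and the log2 change was 1.51 for IFIT5, 0.42 for BST2 and 0.63 for IFI6. Its part in these changes and that of doxycycline cannot be told apart. Without DOX replicate 3, the shallowest library, 2 members passed, and 2 passed without untreated replicate 3. The other IFIT and OAS members, ISG15, IFITM1 to IFITM3 and both MX genes did not pass, with log2 changes between −0.38 for MX1 and 0.94 for OAS2. EPSTI1 had 3 counts over the DOX libraries and 1 over the untreated ones, a ratio of 3.61 with an interval of 0.289 to 189, so its change was not measurable at this depth.

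**Figure D5:**
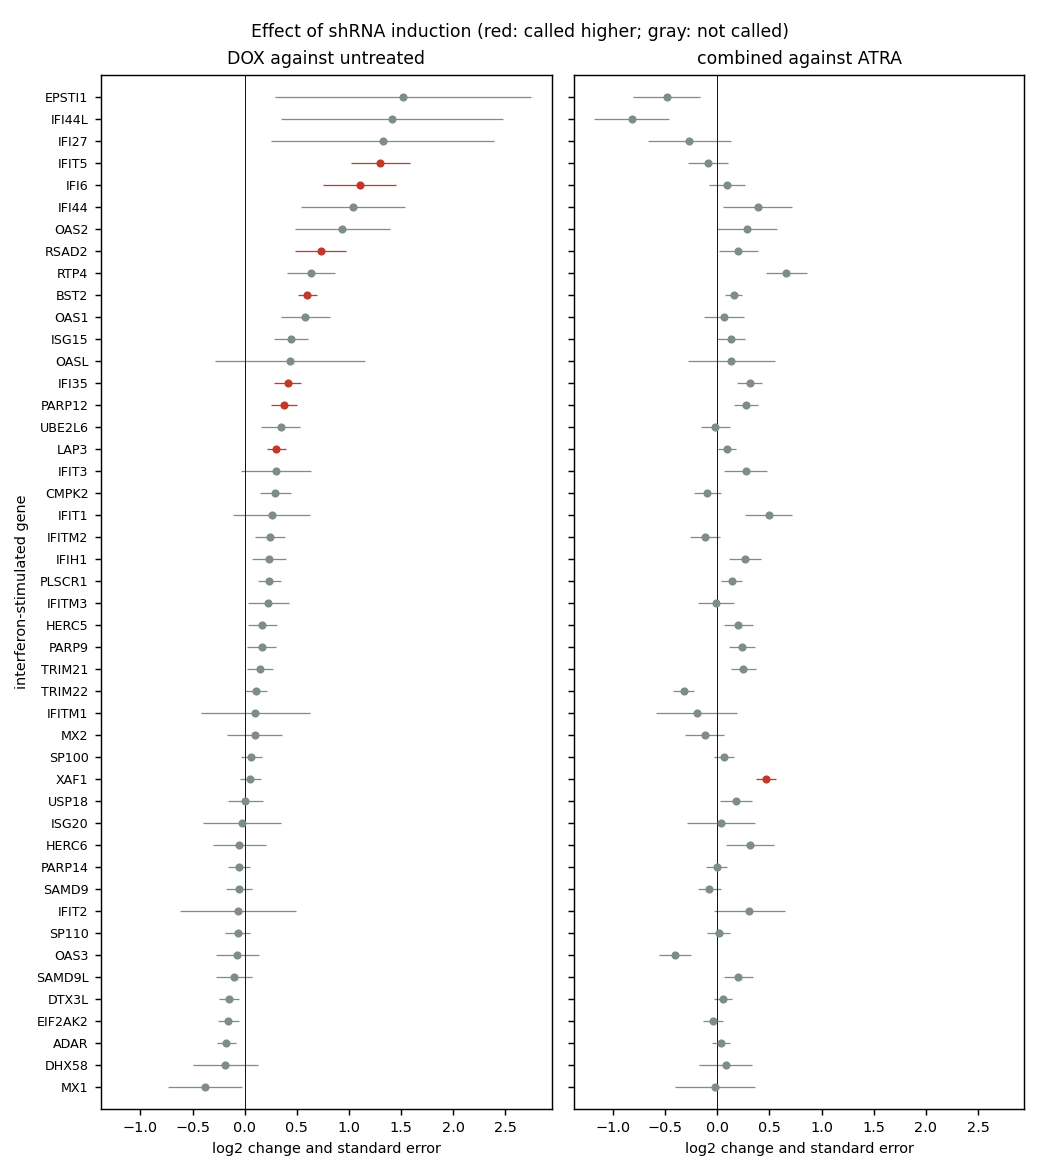
Log2 change with standard error of 46 members in DOX against untreated (left) and combined against ATRA (right) on the same horizontal scale, with members in rows ordered by the left panel. Red points passed the test: IFIT5, IFI6, RSAD2, BST2, IFI35, PARP12 and LAP3 on the left and XAF1 on the right.

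With ATRA present, a single member differed with doxycycline by this test, a share near that of all genes. In combined against ATRA 1 member rose (2.17%) and none fell, against 1.89% and 2.56% of all genes. An unadjusted p under 0.05 was reached by 9 members. The groups did not overlap in 10 members, with combined higher in 8 and lower in TRIM22 and IFI44L, against 13.1% and 13.4% of all genes. The median log2 change was 0.09, against 0.00 over all genes. The risen member was XAF1, a factor that promotes apoptosis by binding the inhibitor XIAP. XAF1 had 68.2, 65.6 and 69.1 CPM in combined and 49.4, 42.3 and 54.6 CPM in ATRA libraries, a log2 change of 0.47 ± 0.10 (adjusted p = 0.00441, edgeR quasi-likelihood, Benjamini-Hochberg). Without ATRA, XAF1 had 39.6, 34.6 and 36.9 CPM in DOX and 37.1, 33.7 and 36.1 CPM in untreated libraries, which overlapped. The call was lost at equal depth (0.39, adjusted p = 0.0994) and without replicate 2 of both ATRA and combined groups (adjusted p = 0.1). XAF1 has 2535 exon bases opposite the antisense gene PRAL, and reads of the pair cannot be told apart without a stated strand setting.

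RTP4, a chaperone of receptors, came next with 0.66 ± 0.20 (adjusted p = 0.0568, edgeR quasi-likelihood) and TRIM22 with −0.32 ± 0.10 (adjusted p = 0.0644). As examples of members that did not pass, the 95% interval of the difference ran from −0.14 to 0.21 on the log2 scale for ADAR, from −0.01 to 0.32 for BST2 and from −0.29 to 0.25 for UBE2L6. For IFIT1 it ran from 0.05 to 0.93. The comparisons of DOX with untreated and of combined with ATRA share no libraries with each other, but each shares libraries with the ATRA comparisons.

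The genes of the pathway upstream of these members were measured in the same libraries. Of 22 interferon genes 18 had no count, and the other 4 held 29 counts in the 12 libraries, 26 of them on IFNK, the keratinocyte interferon. IFNA10, IFNB1 and IFNW1 had 1 count each, and none of the 22 passed the filter. A count of 0 in the 3 ATRA libraries allows a level of up to 0.0856 CPM (3 counts over the group) and in the 3 untreated libraries up to 0.075 CPM. Interferon protein was not measured.

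Receptors and Janus kinases rose with ATRA in 7 of 8 tested, with none lower, against 15.7% of all genes called higher and 13.2% called lower. IFNAR2, the signalling chain of the type I receptor, had 45.3, 41.2 and 45.4 CPM in ATRA and 18.7, 17.7 and 16.4 CPM in untreated libraries, without overlap (1.33 ± 0.10, adjusted p = 3.02e-10, edgeR quasi-likelihood, Benjamini-Hochberg). IFNAR2 shares 44.2% of its exon bases on the same strand with another annotated gene, so its counts are less certain. JAK2, JAK1 and TYK2 rose by 0.81, 0.42 and 0.40, IFNGR2 by 0.47 and IFNAR1 by 0.37. In combined against DOX 4 of the 8 rose (10.7% of all genes), IFNAR2 by 0.79 ± 0.10. In combined against ATRA TYK2 fell by 0.33 on the log2 scale.

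Of the 9 transcription factors 5 rose with ATRA and none fell (15.7% and 13.2% of all genes), and 5 rose in combined against DOX (10.7%). IRF1 had 133.6, 133.0 and 136.1 CPM in ATRA and 33.3, 33.7 and 34.7 CPM in untreated libraries, a log2 change of 1.98 ± 0.08 (adjusted p = 3.06e-15, edgeR quasi-likelihood, Benjamini-Hochberg). The groups of IRF1 were far apart and tight across replicates, ATRA replicate 2 included, unlike those of the IFIT and OAS genes other than IFIT5. STAT2 rose by 0.68 ± 0.14. IRF8, a myeloid lineage factor, rose by 0.85 ± 0.09. IRF9, the DNA-binding part of ISGF3, stayed near the limit of measurement, with 0.903 ± 0.429 CPM in ATRA and 0.425 ± 0.497 CPM in untreated libraries, and did not pass (adjusted p = 0.244). IRF9 shares 48.4% of its exon bases with another annotated gene. In combined against DOX the changes were 1.62 for IRF1 and 0.61 for STAT2. In DOX against untreated IRF1 rose by 0.49 ± 0.08.

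Feedback inhibitors rose with ATRA in 2 of 7, against 15.7% of all genes. SOCS3, which blocks Janus kinases, rose by 1.25 ± 0.20 and PTPN6, the phosphatase SHP-1, by 0.93 ± 0.09. SOCS1, the inhibitor most tied to interferon signalling, did not pass (0.42 ± 0.17, adjusted p = 0.0594, edgeR quasi-likelihood). In combined against DOX 2 of 7 rose and 1, CISH, fell (10.7% and 8.21% of all genes). Sensors of nucleic acids and their kinases rose with ATRA in 6 of 10 tested (15.7% of all genes). Among the 6, IFI16 rose by 1.21, IKBKE by 0.67, CGAS by 0.51 and TBK1 by 0.51. In combined against DOX 5 of the 10 rose (10.7% of all genes). None of the 10 passed in DOX against untreated (8.14% of all genes higher, 6.92% lower) or in combined against ATRA (1.89% and 2.56%).

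Antiviral effectors outside the 47 rose with ATRA in 9 of 18 tested (15.7% of all genes) and in 9 of 18 in combined against DOX (10.7%). SAMHD1, which breaks down deoxynucleotides and so starves reverse transcription, was the strongest, with 1140, 1054 and 1179 CPM in ATRA, 710.5, 703 and 792 CPM in combined, 121, 129.0 and 129.8 CPM in DOX and 109.9, 101.6 and 112 CPM in untreated libraries. Its libraries with ATRA were above all others, and those with ATRA alone above the combined ones. Its ATRA change was 3.38 ± 0.09 with the shRNA off and 2.54 ± 0.09 with it on. SLFN5 rose by 2.85, GBP2 by 1.74, TRIM14 by 1.17 and SHFL by 1.14 with the shRNA off. Of 7 genes better known as interferon gamma targets 4 rose with ATRA and 1 fell, against 15.7% and 13.2% of all genes. PSMB9 rose by 1.33, WARS1 by 1.12, CIITA by 1.05 and TAP1 by 0.91. FCGR1A, a receptor for IgG, fell by 0.73 on the log2 scale. In combined against DOX 3 rose (10.7% of all genes) and FCGR1A fell by 0.97 (8.21% of all genes fell). In DOX against untreated 3 of the 7 rose (8.14% of all genes), PSMB9 by 0.66, FCGR1A by 0.65 and TAP1 by 0.39.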

How the data were processed

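RNA of MOLM14 cells was sequenced from both fragment ends by a service provider on an Illumina NovaSeq, per the labels. The authors deposited raw counts, whole numbers for each gene in each library without normalization, and their processing notes name STAR, HTSeq and FastQC with build GRCh38. Versions, annotation and strand setting are not given in the sources used here. The table held 61487 identifiers and 23 empty columns. Symbols came from a table of gene names (61369 identifiers), and coordinates and exon lengths from GENCODE release 29 (58312 identifiers). The 12 libraries were grouped from the labels, 3 per group.

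Counts were modelled in edgeR 4.0.16 under R 4.3.3 with 1 quasi-likelihood fit of the 4 group means, from which each contrast was taken. The filterByExpr step left 16104 genes, and libraries were scaled by TMM. P-values were adjusted by Benjamini-Hochberg across those genes, with 0.05 as the threshold. A standard error is the log2 change divided by the root of F, and the biological coefficient of variation was 9.54%. The replicates are called biological by the series' text with no further detail, so p-values measure the spread between these samples. Library totals differed by a ratio of 7.21. A fold against a group with 1 to 3 counts was replaced by a ratio of counts with an exact 95% interval, which covers counting error only. Promoters were those of RefSeq on GRCh38.p14. The steps were tested on simulated data.

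The members, their roles and the pathway lists were chosen with earlier results of these data known. All members may be named. Values in every library are given, per comparison, for up to 8 called members with the largest change and a mean of at least 2 CPM, for called members moving against the majority and for 1 member per family, with MX1, IFI35 and the targeted gene beside them. Pathway genes are named where called, up to 8 per list by adjusted p, with IRF9 and SOCS1 added after their values were seen. Alternatives were RLE and library-size scaling, DESeq2 1.42.0, other filters on low counts, only the groups compared, thinning of each library to the depth of DOX replicate 3 (equal depth), a term for the share of mitochondrial ribosomal RNA, the replicate number as a block, and leaving out libraries. The values of 1 gene of the pathway lists are not reported here.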

Additional observations from a re-analysis of the deposited data

Results flagged for a closer look

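Among the genes named here, SAMHD1 and CIITA stood out because the ATRA change itself differed between the settings with the shRNA on and off. For SAMHD1 the log2 change was 2.54 in combined against DOX and 3.38 in ATRA against untreated, a difference of −0.841 ± 0.124 (adjusted p = 0.00222, edgeR quasi-likelihood, Benjamini-Hochberg) that passed the test in all 24 alternatives, with values between −0.90 and −0.79. For CIITA, the master factor of MHC class II transcription, the changes were 0.29 and 1.05, a difference of −0.757 ± 0.146 (adjusted p = 0.0200) that passed in 14 of 24 alternatives, with values between −0.81 and −0.60. CIITA had 57.1, 49.0 and 56.0 CPM in ATRA, 39.6, 35.4 and 37.95 CPM in combined, 29.6, 33.8 and 26.5 CPM in DOX and 27.3, 27.0 and 24.3 CPM in untreated libraries. Neither gene is among the 47.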

How the results depend on the processing

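The counts of members raised by ATRA stayed within 1.5 times of 39 and 41 under every alternative, and 28 of the 39 and 28 of the 42 called members were tested and kept their call in all 25 of them. A further 6 in each comparison kept it wherever they were tested but were left untested at least once for low counts (OASL, IFI27, IFI44, IFI44L and EPSTI1 in both, with IFITM1 in ATRA against untreated and DHX58 in combined against DOX). Tested and lost at least once were IFIH1, DHX58, EIF2AK2, TRIM21 and RTP4 in ATRA against untreated, and IFIT5, IFITM2, HERC6, USP18, IFIH1, TRIM22, SP100 and RTP4 in combined against DOX, the cause of which was not tested beyond fewer genes or reads at equal depth. The 7 calls in DOX against untreated became 2 with library size alone, with only the groups compared, at equal depth and with the replicate block at equal depth. They became 0 with the mitochondrial ribosomal RNA term, with or without the replicate block, 1 without untreated replicate 3 and DOX replicate 3, and between 2 and 9 with 1 library left out. The call lower there was 0, or 1 without DOX replicate 1. In combined against ATRA the 1 call higher became 2 with only the groups compared, 0 at equal depth, with the replicate block at equal depth and without replicate 2 of ATRA and combined (an exclusion chosen after seeing the data), and 1 or 2 with 1 library left out. The count lower was 0, but 1 with only the groups compared, 1 with the replicate block and the mitochondrial term, and 0 to 2 with 1 library left out. The IFITM2 call in combined against DOX went to 0 with library size alone, only the groups compared, the replicate block, and both exclusions of 2 libraries, and to 0 or 1 with 1 library left out. IFITM2 counted as 1 call lower in ATRA against untreated with the replicate block and the mitochondrial term. The interaction had 0 to 1 calls in each direction with 1 library left out. Signs turned, with no call, for IFITM2 in ATRA against untreated (0.003 without ATRA replicate 2, 0.014 without untreated replicate 1, 0.002 without replicate 2 of ATRA and combined) and in combined against DOX for MX1 (0.03) and HERC5 (0.039) without DOX replicate 2. With libraries left out these ran from −0.205 to 0.014 for IFITM2, from −0.515 to 0.03 for MX1 and from −0.216 to 0.039 for HERC5.

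In 18 pairs of same-numbered libraries the correlation of deviations over all genes tested ran from −0.244 to 0.267 and passed 0.1 in 4. In 36 pairs with different numbers it ran from −0.248 to 0.334. For replicate 2 of ATRA and of combined it was 0.149. Whether same-numbered libraries shared a day or batch was not tested. The replicate block alone gave 8 members higher in DOX against untreated in place of 7, took away the IFITM2 call, and left the other counts of members as they were. Over all genes, DOX against untreated had 1311 calls higher and 1114 lower, against 593 and 543 at equal depth, 785 and 711 with only the groups compared, 74 and 14 with the mitochondrial term and 124 and 50 without untreated replicate 3 and DOX replicate 3. Leaving out 1 library gave there between 481 and 2162 calls higher and 233 and 2221 lower. In ATRA against untreated equal depth gave 1470 higher and 1181 lower against 2525 and 2118, in combined against DOX 1057 and 851 against 1730 and 1322, and in combined against ATRA 139 and 217 against 304 and 413. Depth limits IFI44L, EPSTI1, IFI27 and OASL, which held few counts without ATRA.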
